A study of Saccharomyces cerevisiae with 36 samples.

Results

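Dubious open reading frames are stretches of the yeast genome that are long enough to be listed as a gene but are thought not to encode a protein. They were taken here as the frames of the count files whose systematic name is not a gene of the RefSeq annotation of genome build R64, and 683 of 6600 frames met that rule. Of these, 674 had a nuclear name, with 345 on the W strand and 329 on the C strand, and 9 had a mitochondrial name. The other 5917 frames matched annotated protein-coding genes. For 3 of the 683, YER087C-A, YLR154W-A and YNL067W-A, RefSeq lists the name as a synonym of an annotated gene, so the absence from the annotation is of the name.

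The libraries were total RNA of the haploid budding yeast strain BY4742, from 4 strains at 3 times. The double deletion mpk1rrp6 lacked both MPK1 and RRP6, rrp6 lacked RRP6, mpk1 lacked MPK1 (listed as SLT2), and the wild type (WT) carried no deletion label. Each strain was grown at 25 °C in rich YPD medium and sampled without heat (0 min) and at 10 and 45 min at 42 °C, with 3 biological replicates lettered A, B and C in each of the 12 groups. The duration labels carry no unit and were read as minutes. Each deletion is represented by a single strain label, and whether replicates came from more than 1 clone is not stated in the sources used here.

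Rrp6 is the 3′ to 5′ exonuclease of the nuclear exosome, which trims the ends of small nucleolar RNAs (snoRNAs) and ribosomal RNA and degrades cryptic unstable transcripts, short-lived non-coding RNAs made between and antisense to genes. Its substrates are ended by the Nrd1-Nab3-Sen1 complex, which binds short RNA motifs, and are tailed by the TRAMP complex. Mpk1 is the mitogen-activated protein kinase of the cell wall integrity pathway, which is activated at high temperature. Heat also activates the transcription factor Hsf1 and the factors Msn2 and Msn4, and Msn2 and Msn4 bind the stress response element. Counts at a dubious frame therefore record RNA that crosses its place in the genome, coding or not.

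The sequences below mark places of members that changed, as examples and not as a ranking by size of change. Of these, 3 are gaps between annotated genes, at the place of 1 named member each. The other 2 are the bases just after the 3′ ends of snoRNA genes. The position of a member inside its interval is not given by the annotation used, so each interval is the whole gap between the neighbouring coding genes, read on the strand of the member, in R64 coordinates from RefSeq. The 3 gaps are under 300 bases, so a member may run past its gap into a neighbouring gene, all of which lie on the other strand there. Capitals mark the Nab3 motif TCTTG on the strand of the member or the stress response element AGGGG on either strand (CCCCT as read here). The Nrd1 motif TGTAG was searched as well and is in none of the 5 sequences. YGL109W lies between CUE3 and YGL108C in chrVII:303412-303648, plus strand, YLL037W between ENT4 and PRP19 in chrXII:66519-66744, plus strand, and YLR171W between APS1 and DPH5 in chrXII:501050-501259, plus strand. The last pair are the first 100 bases after SNR72 (chrXIII:298652-298751, plus strand), in the interval that holds YMR013W-A, and after SNR43 (chrIII:107404-107503, minus strand), in the interval that holds YCL007C.
YGL109W: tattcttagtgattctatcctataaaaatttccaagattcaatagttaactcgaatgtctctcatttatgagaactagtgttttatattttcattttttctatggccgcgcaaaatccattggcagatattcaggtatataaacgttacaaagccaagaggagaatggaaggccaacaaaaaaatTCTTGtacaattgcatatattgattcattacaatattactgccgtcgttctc
YLL037W: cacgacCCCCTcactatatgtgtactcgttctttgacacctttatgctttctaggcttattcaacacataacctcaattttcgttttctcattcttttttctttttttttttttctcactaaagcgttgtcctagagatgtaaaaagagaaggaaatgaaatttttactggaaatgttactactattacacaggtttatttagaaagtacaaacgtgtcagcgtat
YLR171W: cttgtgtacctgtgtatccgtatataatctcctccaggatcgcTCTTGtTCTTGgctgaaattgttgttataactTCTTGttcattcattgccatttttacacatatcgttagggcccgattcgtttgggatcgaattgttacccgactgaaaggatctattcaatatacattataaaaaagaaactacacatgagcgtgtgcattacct
SNR72: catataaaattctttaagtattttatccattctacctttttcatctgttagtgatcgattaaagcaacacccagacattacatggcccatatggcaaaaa
SNR43: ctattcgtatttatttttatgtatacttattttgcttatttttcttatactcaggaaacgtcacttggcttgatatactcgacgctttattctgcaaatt
The YLR171W interval held TCTTG 3 times, the YGL109W interval held it once, and the YLL037W interval held 1 stress response element. Of 1698 gaps of 150 to 300 bases between neighbouring coding genes, 43.5% held TCTTG on either strand, 33.9% held TGTAG and 13.8% held AGGGG. A match is a run of letters and not a binding site.

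The libraries held 2235918 to 12072112 counts on frames (median 5424180.5), and 3 counts were worth 0.249 to 1.34 CPM, the count scaled to a common library size. RRP6 had 2 counts in all over the 18 libraries labelled as lacking it and 40 to 1010 counts in each of the other 18. SLT2 had 6 counts over the 18 libraries labelled as lacking MPK1 and 111 to 1780 counts in each of the others. The α mating markers MF(ALPHA)1 and STE3 were at 24.2 to 2988 CPM and 18.6 to 873 CPM, and the a-cell markers MFA1 and STE2 at 0.791 to 10.1 CPM and 4.11 to 50.5 CPM. Reads that the authors could not place once made up 4.10% to 26.0% of all lines of a file. The setting for strand in the counting is not given in the sources used here. Some genes wholly inside a gene of the other strand held more counts than it, as ADF1 (5686) in FYV5 (257) and CPP2 (95587) in YDR209C (138). Others held few, as SLM6 (44) in REI1 (11631). Reads were thus assigned by strand at least in part, but how cleanly is not known. RNA of a dubious frame and of a gene across from it therefore cannot be told apart with certainty.

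Most dubious frames were barely counted. No count was found in any of the 36 libraries for 47 members, including all 9 mitochondrial ones, 636 had at least 1 count, and 102 had counts in all 36. The filter on low counts kept 302 of the 683 members, against 5715 of the 5917 annotated genes, and the 381 members not tested held 4.31% of the members' counts. The median member had a mean of 0.589 CPM over all libraries and the median annotated gene 46.1 CPM, in counts that are not per length. A single frame, YDR133C, took 47.5% of all counts on members, and the 10 most counted took 58.7%. Its place on chromosome IV lies between MRX16, a mitochondrial protein gene, and YCF1, a vacuolar transporter gene, and the annotation lists the pseudogene CCW22 there on the same strand (721071 to 721481), which has no line of its own in the files.

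Together the members took between 0.0665% and 0.394% of the counts on frames. Before heat, the share was 0.133% ± 0.00335 in mpk1rrp6, 0.154% ± 0.00156 in rrp6, 0.0671% ± 0.000844 in mpk1 and 0.0736% ± 0.00288 in WT (SD, n = 3 each). Loss of RRP6 thus went with a 2.1-fold share in rrp6 over WT and a 1.98-fold share in mpk1rrp6 over mpk1, and the libraries did not overlap in either pair. At 10 min the shares were 0.347% ± 0.0482 in mpk1rrp6, 0.278% ± 0.0120 in rrp6, 0.323% ± 0.0669 in mpk1 and 0.263% ± 0.0186 in WT. At 45 min they were 0.272% ± 0.0150 in mpk1rrp6, 0.279% ± 0.00848 in rrp6, 0.293% ± 0.0242 in mpk1 and 0.246% ± 0.0147 in WT. Every heated library had a higher share than every unheated library of its own strain, by 3.58-fold at 10 min and 3.34-fold at 45 min in WT and by 1.80-fold and 1.81-fold in rrp6. Under heat, the share of rrp6 over WT was 1.05-fold at 10 min, with overlapping libraries, and 1.14-fold at 45 min, without overlap.

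**Figure D1:**
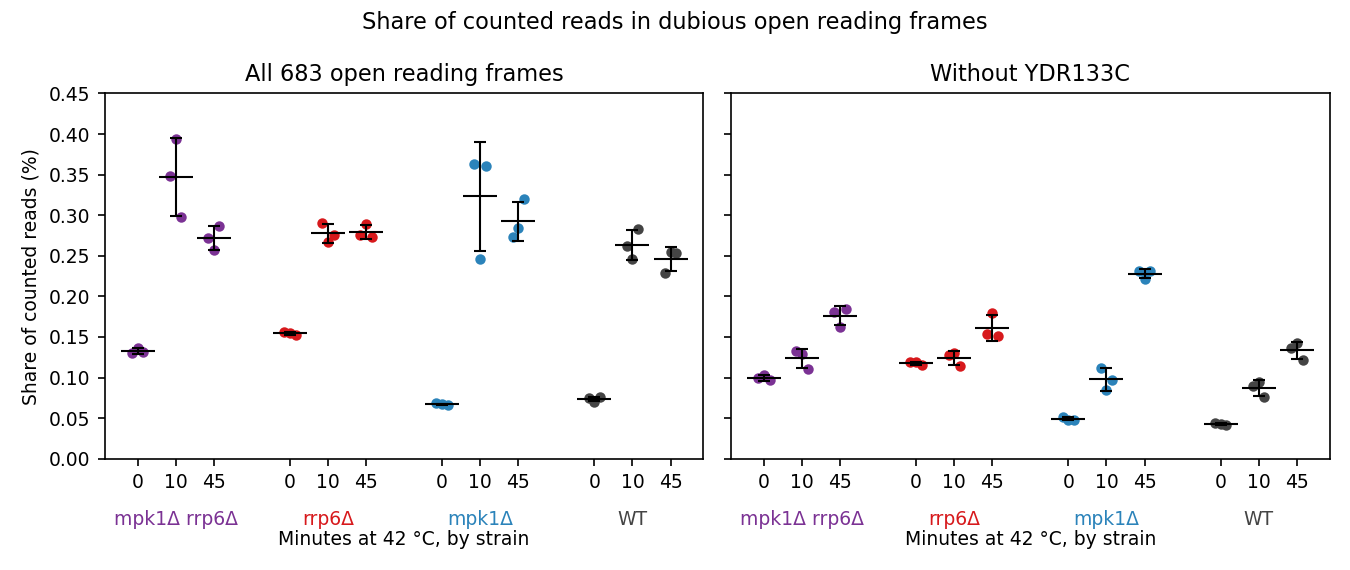
Share of counts on frames (%) taken by the 683 dubious frames in each library, by strain and minutes at 42 °C, for all members (left) and without YDR133C (right), with points for libraries and lines for the mean ± SD of 3. On the left, unheated rrp6 and mpk1rrp6 libraries lie between 0.130% and 0.155%, unheated WT and mpk1 libraries between 0.0665% and 0.0761%, and all heated libraries at 0.229% or more.

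YDR133C took a large part of the share in heated libraries, less so in mpk1 at 45 min. It had 996, 1144 and 966 CPM in mpk1rrp6, 1694, 1281 and 1484 CPM in rrp6, 387, 491 and 826 CPM in mpk1 and 1498, 1499 and 2024 CPM in WT at 45 min. At 0 min it had 228, 239.9 and 275 CPM in mpk1rrp6, 284, 289 and 304 CPM in rrp6, 132, 144 and 162 CPM in mpk1 and 264, 242 and 317 CPM in WT. All heated libraries were above the unheated ones of their strain, with a log2 fold change at 45 min of 2.61 ± 0.22 in WT (SE, adjusted p = 7e-12 by edgeR's quasi-likelihood test) and 2.35 ± 0.22 in rrp6. Between rrp6 and WT it differed by 0.09 ± 0.21 at 0 min (adjusted p = 0.83), with overlapping libraries. Without YDR133C the share was 0.117% in rrp6 and 0.0430% in WT at 0 min, and 0.161% in rrp6 and 0.133% in WT at 45 min. In mpk1 it was 0.228% at 45 min and 0.0490% at 0 min, and without the 10 most counted members the fold of mpk1 at 45 min over 0 min was 4.35, against 4.36 with them. Without the 10 most counted members, the share of rrp6 at 10 min over rrp6 at 0 min was 0.919-fold in place of 1.80-fold, and that of rrp6 over WT at 0 min 2.64-fold. The direction of the summed heat response in rrp6 at 10 min thus rested on a few frames. With all lines of a file in the denominator, unplaced and non-feature reads included, the share of rrp6 over WT under heat was below 1 in place of above it.

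Loss of RRP6 raised a set of dubious frames in unheated cells. In rrp6 against WT at 0 min, 85 of the 302 tested members were higher and 1 was lower, at an adjusted p under 0.05, beside 9.32% higher and 4.64% lower among all 6017 rows tested (14.0% either way). Their log2 fold changes ran from 0.78 to 10.55, and 18 of the 85 had no count in the WT libraries. In mpk1rrp6 against mpk1 at 0 min, which shares no library with that comparison, 71 were higher and 2 lower, beside 4.67% and 2.61% of all rows (7.28% either way). The higher sets had 65 members in common, 76.5% of the 85 and 91.5% of the 71, an overlap counted among members only. The median log2 difference over the 302 members was 1.27 in rrp6 over WT, or 0.85 with members at 0 counts set to their bound, and 0.74 in mpk1rrp6 over mpk1, against 0.03 and -0.01 over all rows. The filter runs over all 12 groups, so a member could pass through its level in heated or RRP6-less libraries alone, and these medians describe the members that passed. Over all 636 members with counts, as log2 CPM with a prior count of 2, the medians were 0.30 in rrp6 over WT and 0.19 in mpk1rrp6 over mpk1. With no filter on low counts, 103 of the 636 members with counts were higher and 1 lower in rrp6 over WT, beside 8.97% and 3.76% of all 6522 rows.

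**Figure D2:**
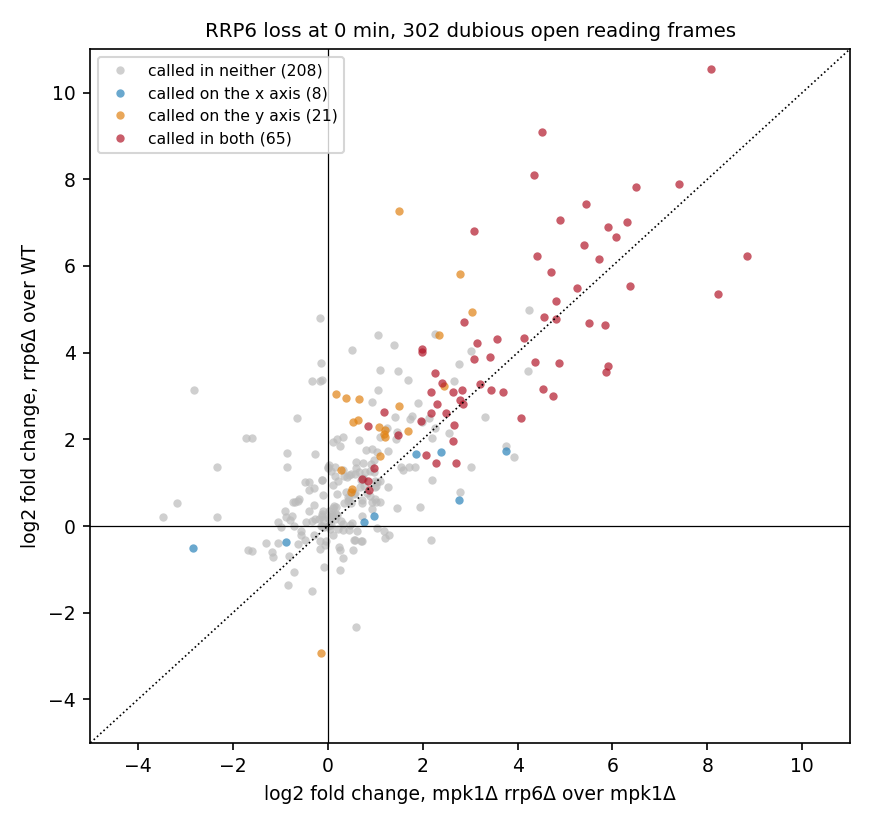
Log2 fold change of the 302 tested dubious frames at 0 min with RRP6 lost, mpk1rrp6 over mpk1 on the x axis and rrp6 over WT on the y axis, with a dotted line of equality, coloured by the comparison in which each was called. A total of 65 members were called in both and 208 were called in neither.

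YMR013W-A, on chromosome XIII between CLU1 and BUD22 in an interval that holds the 7 snoRNA genes SNR78 to SNR72 on the same strand, was among the clearest. At 0 min it had 35.8, 48.4 and 30.5 CPM in mpk1rrp6 and 59.2, 58.5 and 55.0 CPM in rrp6, against 0.753, 0.987 and 0.902 CPM in mpk1 and 0.609, 0.803 and 0.301 CPM in WT. Each library without RRP6 was far above each library with it. At 45 min the values were 109, 111 and 67.2 CPM in mpk1rrp6 and 281, 245 and 161 CPM in rrp6, against 6.75, 4.88 and 6.57 CPM in mpk1 and 3.62, 6.19 and 5.01 CPM in WT. The log2 fold change of rrp6 over WT was 6.49 ± 0.42 at 0 min (SE, adjusted p = 8.08e-13), 7.60 ± 0.36 at 10 min and 5.40 ± 0.32 at 45 min. The flanking genes CLU1 and BUD22 differed by -0.15 (adjusted p = 0.50) and 0.01 (adjusted p = 0.99) in rrp6 over WT at 0 min. The interval also holds SEC59, a coding gene on the other strand that shares the number of YMR013W-A.

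YCL007C lies beside SNR43, a guide RNA for pseudouridylation, and on its strand. It had 10.2, 8.66 and 8.05 CPM in mpk1rrp6 and 18.1, 20.2 and 18.7 CPM in rrp6 at 0 min, against no count in the 3 mpk1 libraries and 0, 0.321 and 0.301 CPM in WT. The groups did not overlap, and the fold of mpk1rrp6 over mpk1 was at least 74.8, with 3 counts over the mpk1 libraries as the floor. In rrp6 over WT the log2 fold change was 6.23 ± 0.45 at 0 min (SE, adjusted p = 2.76e-11), 6.94 ± 0.39 at 10 min and 5.26 ± 0.40 at 45 min.

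For 15 members an annotated snoRNA lies in the gap between the flanking genes or inside a flanking gene, and 10 of these members were tested. The count does not separate snoRNAs in the gap from those inside a flanking gene. Split by strand after the values were seen, 9 of the 15 share a strand with a snoRNA, of which 7 were tested. Beside 28.1% of all tested members and 9.32% of all rows, 6 of these 7 were higher in rrp6 than in WT at 0 min. Besides the pair above, these were YOR277C beside SNR31 (7.93 CPM in rrp6 and 0.315 CPM in WT), YOR041C beside SNR9 (8.32 CPM in rrp6 and 1.07 CPM in WT), YLR366W beside SNR44 (2.60 CPM in rrp6 and 0.10 CPM in WT) and YML057C-A beside SNR54 (0.651 CPM in rrp6 and 0.101 CPM in WT). The call on YML057C-A rests on low counts (edgeR adjusted p = 0.033). The exception among the 7 was YAL004W beside SNR18, at 0.111 CPM in rrp6 and 0.101 CPM in WT. Of the 6 members with snoRNAs on the other strand alone, 3 were tested and none passed the test. Reads that run past a snoRNA end, reads of a flanking gene that may hold it and reads of a separate transcript cannot be told apart.

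Other members were without a count in WT and present in rrp6. YPL222C-A lies between the dehydrin-like gene GRE1 and FLC1 and shares its number with FMP40 on the other strand. At 0 min it had 22.8, 30.6 and 34.5 CPM in rrp6, against 0 in all 3 WT libraries. In the double deletion it had 13.4, 17.5 and 17.4 CPM, against 0, 0.110 and 0 CPM in mpk1. The groups did not overlap in either pair, and the fold of rrp6 over WT was at least 125. For the other members named among the highest, the fold of rrp6 over WT was at least 46.0 for YCR064C, between BUD31 and HCM1, 23.0 for YML012C-A, 19.9 for YLR364C-A, 18.9 for YCR081C-A and 14.6 for YOR082C. YCR064C averaged 10.7 CPM in rrp6, and its neighbours BUD31, a splicing factor gene, and HCM1, a forkhead factor gene, differed by 0.28 and -0.22 with adjusted p of 0.65 and 0.53. These floors are 3 counts over the 3 WT libraries on the scale of the printed CPM, and the WT libraries, at 2918919 to 5476248 counts, were shallower than the rrp6 libraries at 6317241 to 12072112.

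The members at the gaps printed above were each higher without RRP6 at 0 min. YGL109W had 4.25, 7.07 and 6.39 CPM in mpk1rrp6 and 8.69, 11.8 and 10.6 CPM in rrp6, against no count in mpk1 and 0.609, 0.161 and 0 CPM in WT. YLL037W had 5.59, 5.92 and 6.14 CPM in mpk1rrp6 and 5.69, 6.78 and 6.46 CPM in rrp6, against 0.215, 0.219 and 0.150 CPM in mpk1 and 0.304, 1.12 and 0.602 CPM in WT. YLR171W had 2.80, 1.44 and 1.91 CPM in mpk1rrp6 and 1.14, 1.63 and 1.60 CPM in rrp6, against 0.108, 0.110 and 0 CPM in mpk1 and no count in WT. Libraries without RRP6 were above those with it in each case. The log2 fold change of rrp6 over WT was 5.35 ± 0.56 for YGL109W (SE, adjusted p = 6.81e-08) and 3.00 ± 0.51 for YLL037W (adjusted p = 6.37e-05), and the fold for YLR171W was at least 6.23. The flanking genes of the 3 intervals, CUE3, YGL108C, ENT4, PRP19, APS1 and DPH5, differed by between -0.17 and 0.12 with adjusted p of 0.57 or more.

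The single member lower in rrp6 than in WT at 0 min was YHR214W-A, near the end of chromosome VIII among duplicated genes, so its reads may be split between copies. It averaged 0.473 ± 0.351 CPM in rrp6 and 3.99 ± 0.952 CPM in WT (SD, n = 3), but 3.75 ± 0.974 CPM in mpk1rrp6 and 4.26 ± 1.95 CPM in mpk1. The 2 members lower in mpk1rrp6 than in mpk1 were YGL188C, beside the ribosomal protein gene RPS26A, and YJL188C, with log2 fold changes of -0.87 and -2.85. The call on YGL188C was lost when any 1 of the 6 libraries was left out.

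Under heat, the members called with RRP6 lost were split more evenly between higher and lower. At 10 min, 65 members were higher and 16 lower in rrp6 than in WT, beside 14.5% and 15.8% of all rows (30.3% either way), and 56 were higher and 9 lower in mpk1rrp6 than in mpk1, beside 11.5% and 8.51% (20.0% either way). At 45 min, 59 were higher and 47 lower in rrp6 than in WT, beside 21.7% and 24.7% (46.4% either way), so the higher share of members was near that of all rows. In mpk1rrp6 against mpk1 at 45 min, 32 were higher and 39 lower, beside 15.5% and 12.3% (27.8% either way), and these 71 calls became 40 without mpk1rrp6 replicate B and 20 higher to 79 lower when libraries were scaled by total counts, beside 5.37% higher and 31.7% lower of all rows with that scaling. The higher sets of both backgrounds shared 46 members at 10 min (70.8% of 65 and 82.1% of 56) and 21 at 45 min (35.6% of 59 and 65.6% of 32). In rrp6 over WT, 32 members were higher at all 3 times. In 15 members RRP6 loss went with a higher level at all 3 times in both backgrounds: YCL007C, YDR199W, YEL045C, YGL109W, YGR069W, YJL015C, YJL202C, YJR018W, YKL030W, YLR120W-A, YLR171W, YLR364C-A, YMR013W-A, YNL097W-A and YOR082C. These overlaps between times and backgrounds were counted among members only, with no share over all rows.

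At 10 min the fold of rrp6 over WT was at least 45.2 for YLR154W-A, 31.1 for YGL109W, 24.5 for YOR082C and 10.8 for YML094C-A, all without a count in WT. YLR154W-A is a synonym of TAR1, whose place is in the ribosomal DNA repeat, and averaged 7.64 ± 1.17 CPM in rrp6. Reads of that repeat can match several copies, and reads placed in several places made up 20.1% of lines in rrp6 and 5.0% in WT at 10 min. The part of this in the result was not tested. At 45 min the members named as lower included YIR020W-A between FLO11 and MRS1 in the interval of the non-coding RNAs ICR1 and PWR1, at 0.179 CPM in rrp6 and 7.0 CPM in WT, YML099W-A beside TSL1, and YOL079W beside REX4. YOL079W had 1.82, 0.384 and 0.706 CPM in rrp6, against 35.5, 28.3 and 13.9 CPM in WT, without overlap (log2 fold change -4.69 ± 0.60, adjusted p = 2.54e-07). At 10 min, the lower calls on YIR020W-A, YHR214W-A and YOL079W each depended on single libraries, with adjusted p between 0.0508 and 0.110 without them.

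Heat raised many more dubious frames than it lowered. In WT, 163 of the 302 tested members were higher and 13 lower at 10 min than at 0 min, beside 38.3% and 36.2% of all rows (74.5% either way), and 204 were higher and 10 lower at 45 min, beside 41.0% and 39.2% (80.2% either way). The median log2 change over the tested members was 1.94 at 10 min and 2.98 at 45 min, or 1.45 and 2.45 with members at 0 set to their bound, against 0.04 at both times over all rows, and 0.51 and 0.89 over all 636 members with counts. A fit of the compared WT libraries alone called 55 higher and 8 lower of 94 tested members at 10 min, beside 39.1% and 36.7% of all rows. At 45 min it called 56 higher and 3 lower of 72, beside 40.2% and 39.2%. In that fit a member could pass the filter through its 3 heated or its 3 unheated libraries alone, and the splits describe the members that passed. In mpk1, 181 were higher and 19 lower at 10 min, beside 40.5% and 36.9% (77.3% either way), and 239 were higher and 19 lower at 45 min, beside 42.4% and 39.5% (81.9% either way). In rrp6, 118 were higher and 41 lower at 10 min, beside 37.2% and 37.7% (74.8% either way), and 164 were higher and 41 lower at 45 min, beside 40.5% and 39.0% (79.5% either way). In mpk1rrp6, 142 were higher and 29 lower at 10 min, beside 37.3% and 37.3% (74.7% either way), and 183 were higher and 22 lower at 45 min, beside 39.9% and 37.9% (77.8% either way). A total of 84 members were higher in all 4 strains at 10 min and 138 at 45 min. The share of all rows higher in all 4 strains was not counted, so these overlaps are not shown to be particular to the members.

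Scaling by total counts moved the median over all rows by between -0.71, in WT at 45 min over 0 min, and 0.76, in mpk1 over WT at 45 min. With that scaling the split was 86 higher to 70 lower at 10 min and 128 to 71 at 45 min in rrp6, and 107 to 50 and 149 to 41 in mpk1rrp6. Of all rows it called 22.9% higher and 53.0% lower in rrp6 at 10 min, and 25.1% higher and 55.4% lower in rrp6 at 45 min. For mpk1rrp6 these shares were 23.6% higher and 52.9% lower at 10 min, with 26.4% higher and 52.0% lower by 45 min. The excess of higher over lower members held in each strain at both times. With no filter on low counts, 200 of the 636 members with counts were higher and 14 lower at 10 min in WT, beside 36.7% and 32.4% of all 6522 rows. At 45 min 300 were higher and 12 lower, beside 40.5% and 35.4% of all rows. At 10 min members were thus called higher less often than all rows in that fit.

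**Figure D3:**
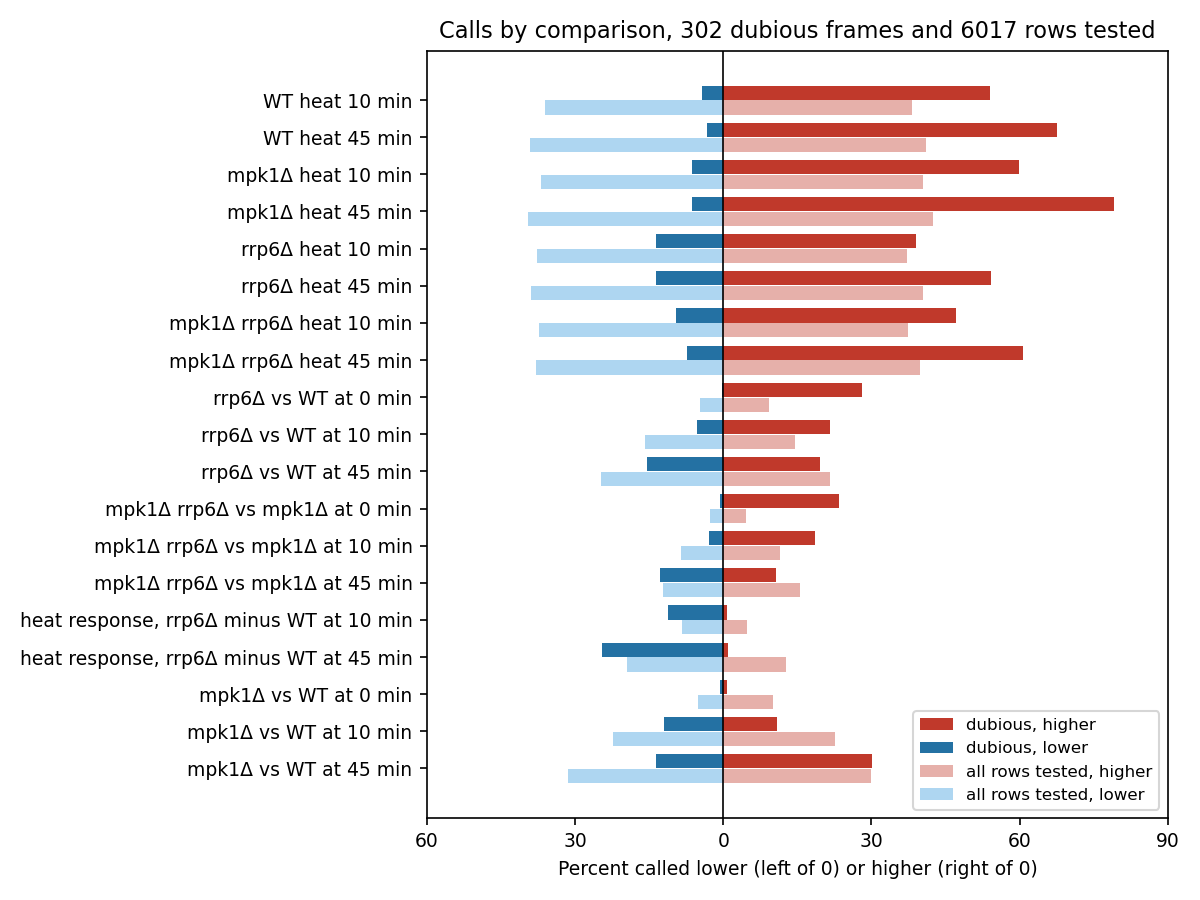
Percent of the 302 tested dubious frames and of all 6017 tested rows called higher (right of 0) or lower (left of 0) in each comparison, at an adjusted p under 0.05. In WT at 45 min, 67.5% of tested members and 41.0% of all rows were higher, and 3.31% of members and 39.2% of rows were lower.

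Several members with large heat changes in WT lie beside strongly induced genes of the heat and general stress response. At 45 min the fold over 0 min was at least 99.8 for YPL222C-A beside GRE1, 57.5 for YML099W-A beside TSL1, a trehalose synthase subunit gene, and 44.1 for YCL041C beside GLK1, the glucokinase gene. These neighbours rose by 6.85, 10.04 and 6.47 on the log2 scale. YPL222C-A and YML099W-A also share their numbers with FMP40 and ARG81, coding genes on the other strand in the same intervals. YFL015W-A lies between MDJ1, a mitochondrial chaperone gene, and HSP12, a membrane stress protein gene, which rose by 5.44 and 10.76. YCL041C had 13.8, 6.59 and 10.6 CPM in WT at 45 min, against no count in the 3 WT libraries at 0 min. Of 202 higher members with a tested coding neighbour, 153 (75.7%) had a neighbour that was also higher at 45 min, beside 72.3% of the 300 tested members with such a neighbour, so this share was near that of the tested members as a whole.

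Other members rose where at least 1 flanking gene did not pass the test or fell. YHL006W-A, which shares its number with the DNA repair gene SHU1 on the other strand, had 274, 151 and 166 CPM in WT at 45 min, against 0.609, 0.482 and 0.602 CPM at 0 min, without overlap. Its log2 change was 8.43 ± 0.46 (SE, adjusted p = 2.51e-16), while SHU1 and STE20, a kinase gene, differed by -0.37 (adjusted p = 0.37) and 0.11 (adjusted p = 0.42). On its other side YHL005C, with 248 counts in all libraries, rose by 5.43. YLL037W, whose interval holds a stress response element, had 44.9, 46.1 and 67.9 CPM at 45 min and 0.304, 1.12 and 0.602 CPM at 0 min in WT (log2 change 6.06 ± 0.43, adjusted p = 1.02e-13). The neighbour ENT4 fell by 0.87, and PRP19 differed by -0.18 (adjusted p = 0.105). The fold of YLR171W at 45 min in WT was at least 44.1, beside APS1 at -0.20 (adjusted p = 0.33) and DPH5, a diphthamide synthesis gene, which fell by 3.02. YGR160W lies between NSR1, a nucleolar protein gene that fell by 4.34, and RTS3, which rose by 7.07, and itself rose by 3.82 ± 0.58.

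**Figure D4:**
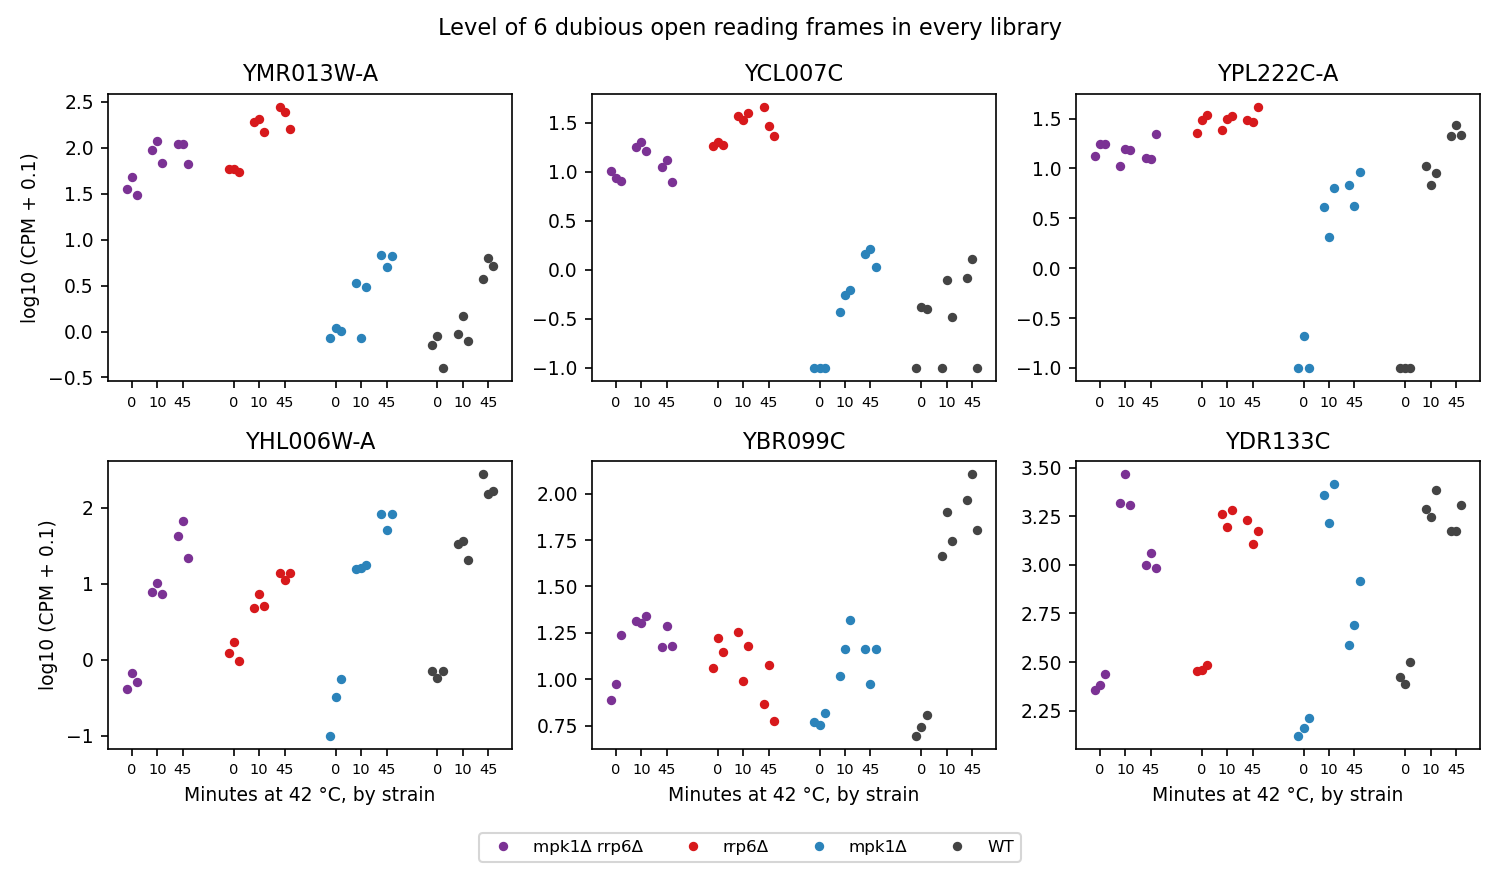
Level of 6 dubious frames in every library as log10 of CPM plus 0.1, by strain and minutes at 42 °C, with a point for each library. YMR013W-A and YCL007C are high wherever RRP6 is lost, YPL222C-A is high with RRP6 lost or heat, YHL006W-A and YBR099C are highest in heated WT, and YDR133C is high in heated libraries of all strains.

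Few members fell with heat in WT. At 45 min the lower members named, those with the largest changes among members that averaged 1 CPM or more and whose groups did not overlap, were YMR304C-A (-2.81), YBR206W (-2.67), YBR109W-A (-2.55), YDR467C (-2.36), YGL188C (-1.98) and YGL123C-A (-1.56). All 10 lower members at 45 min had a coding neighbour that was also lower, beside 64.3% of the tested members with such a neighbour, as had 11 of 13 at 10 min, beside 55.3%. YMR304C-A lies between the alcohol dehydrogenase gene ADH2, which rose by 3.34, and the cell wall gene SCW10, which fell by 3.61. It averaged 1.04 ± 0.981 CPM at 45 min and 5.31 ± 0.954 CPM at 0 min (SD, n = 3). The calls on YGL123C-A, which shares its number with the ribosomal protein gene RPS2, were lost when single libraries were left out, with an adjusted p up to 0.115 at 10 min and 0.292 at 45 min.

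A set of members had a smaller heat response in rrp6 than in WT. Tested as the difference between both responses, 34 members (11.3% of those tested) had a smaller and 2 (0.662%) a larger response in rrp6 at 10 min. Of all rows, 8.38% and 4.79% did (13.2% either way). At 45 min 74 (24.5%) had a smaller and 3 (0.993%) a larger response, beside 19.6% and 12.6% of all rows (32.2% either way). The shares with a smaller response were thus not far above those of all rows. The median difference over the tested members was -0.93 at 10 min and -1.32 at 45 min on the log2 scale, against -0.05 and -0.10 over all rows. This difference uses the same unheated libraries as the comparison of rrp6 with WT at 0 min. Of the members with a smaller response, 28 of 34 at 10 min and 50 of 74 at 45 min were higher in rrp6 at 0 min, beside 28.1% of all tested members. YPL222C-A had 30.9, 29.1 and 41.7 CPM in rrp6 and 21.0, 27.3 and 21.7 CPM in WT at 45 min, with the unheated values given above. Its heat response was 0.22 ± 0.26 in rrp6 (SE, adjusted p = 0.44) and at least 99.8-fold in WT, and the range of heated WT libraries overlapped that of unheated rrp6 libraries.

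YBR099C rose with heat in WT and fell with heat in rrp6. It lies between MMS4, a DNA repair gene, and FES1, an Hsp70 exchange factor gene on its own strand. It had 7.26, 11.9 and 5.88 CPM in rrp6 and 91.9, 127 and 63.4 CPM in WT at 45 min, and 11.4, 16.7 and 13.9 CPM in rrp6 and 4.87, 5.46 and 6.33 CPM in WT at 0 min. The libraries of rrp6 and WT did not overlap at either time, and the order was opposite. Its heat response at 45 min was -0.79 ± 0.34 in rrp6 (adjusted p = 0.032), where heated and unheated libraries overlapped. In WT the response was 4.11 ± 0.33 (adjusted p = 1.68e-12), and the difference between the strains was -4.90 ± 0.47. FES1 rose by 4.81 in WT and differed by 0.25 between rrp6 and WT at 45 min (adjusted p = 0.34).

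YHL006W-A had 13.6, 11.1 and 13.6 CPM in rrp6 at 45 min, below all 3 WT libraries given above. YLL037W had 18.5, 14.6 and 10.8 CPM in rrp6 at 45 min, also below all 3 WT libraries. The differences in heat response were -4.96 ± 0.80 and -4.86 ± 0.57 (SE, adjusted p = 2.09e-05 and 1.85e-07). At 45 min, 148 members were higher with heat in both WT and rrp6, 72.5% of the 204 in WT and 90.2% of the 164 in rrp6, with no such count over all rows. Another 14 were higher with heat in WT and lower with heat in rrp6: YBR012C, YBR099C, YCR064C, YDL086C-A, YDR008C, YDR426C, YHL002C-A, YJL067W, YJR018W, YJR087W, YLR463C, YOR041C, YOR318C and YPR050C. No such count was made over all rows. All of the 14 but YOR318C were also higher in rrp6 than in WT at 0 min, in the same unheated libraries that these heat responses use. Among them, YDR426C averaged 10.1 ± 2.45 CPM in rrp6 and 3.20 ± 0.418 CPM in WT at 45 min, and 17.9 ± 2.05 CPM in rrp6 and 0.107 ± 0.186 CPM in WT at 0 min (SD, n = 3).

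**Figure D5:**
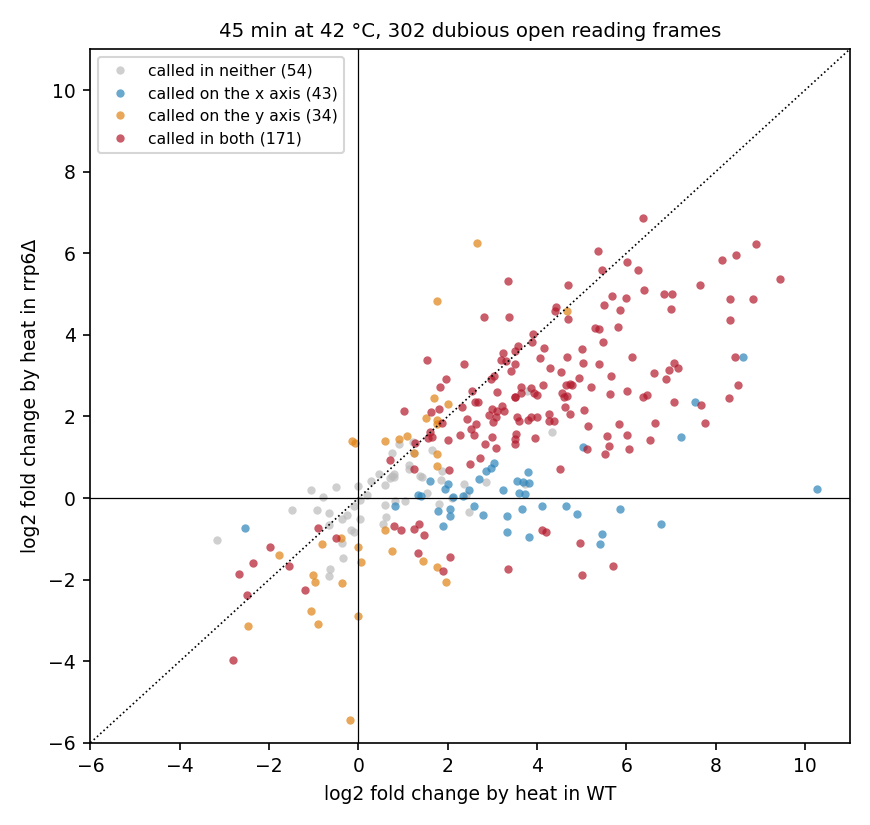
Log2 change of the 302 tested dubious frames at 45 min over 0 min, WT on the x axis and rrp6 on the y axis, coloured by the strain in which each was called, with a dotted line where both changes are equal. A total of 171 members were called in both strains and 54 in neither, and YPL222C-A is the point at the far right near 0 on the y axis.

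The clearest larger response in rrp6 was that of YNL179C, between RHO5, a small GTPase gene, and the ribosomal protein gene RPS3. At 45 min it had 47.2, 34.5 and 26.8 CPM in rrp6 and 5.79, 5.79 and 10.0 CPM in WT, and at 0 min 3.83, 3.77 and 2.86 CPM in rrp6 and 1.83, 3.21 and 1.51 CPM in WT. Heated rrp6 libraries were above all heated WT libraries. The difference in response was 2.32 ± 0.50 at 10 min (SE, adjusted p = 0.0026) and 1.85 ± 0.50 at 45 min (adjusted p = 0.0050), and without WT replicate B at 0 min the adjusted p was 0.081 and 0.123. The other larger response at 10 min was that of YPL197C, with a higher log2 difference of 5.59 but only 191 counts over all libraries.

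YLR171W was higher without RRP6 in heated cells too. It had 49.0, 41.0 and 30.4 CPM in mpk1rrp6, 46.0, 47.6 and 37.4 CPM in rrp6, 12.5, 5.75 and 13.6 CPM in mpk1 and 18.8, 5.99 and 6.12 CPM in WT at 45 min. Libraries without RRP6 were above all those with it. The log2 fold change of rrp6 over WT was 2.29 ± 0.37 (SE, adjusted p = 1.13e-05), and the heat response in rrp6 was 4.87 ± 0.38. Between comparisons with no library in common, 55 of the 71 members higher in mpk1rrp6 than in mpk1 at 0 min were also higher with heat in WT at 45 min (77.5% of 71 and 27.0% of 204), where 67.5% of all tested members were higher.

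Few unheated members were called with MPK1 lost. In mpk1 against WT at 0 min, 2 members were higher, YGR137W (0.83) and YKL066W (1.03), and 2 were lower, YDR133C (-0.91) and YKR035C (-1.88), beside 9.99% and 5.22% of all rows (15.2% either way). Without 1 library this count of 4 ranged from 2, without WT replicate B, to 7, without mpk1 replicate C. At 10 min 33 were higher and 36 lower, beside 22.6% and 22.3% (45.0% either way), and at 45 min 91 were higher and 41 lower, beside 29.9% and 31.5% (61.4% either way). Scaled by total counts, the split was 5 to 1 at 0 min, 58 to 24 at 10 min and 161 to 23 at 45 min, when 14.3%, 35.9% and 64.2% of all rows were higher and 1.30%, 12.7% and 11.1% lower. YOL013W-A lies between YOL014W and the histone H2A.Z gene HTZ1 and shares its number with HRD1 on the other strand. At 45 min it had 2.70, 3.20 and 2.26 CPM in mpk1 and 109, 91 and 62.3 CPM in WT, without overlap. Its log2 difference was -4.97 ± 0.32 (SE, adjusted p = 7.69e-13), beside -2.87 for YOL014W. In mpk1rrp6 it had 3.24, 6.23 and 3.77 CPM and in rrp6 34.8, 33.0 and 16.7 CPM. YPR108W-A averaged 3.24 ± 0.905 CPM in mpk1 and 71.5 ± 26.5 CPM in WT (SD, n = 3). In the other direction, YKR033C beside the nitrogen regulator gene DAL80 averaged 13.2 ± 1.93 CPM in mpk1 and 1.12 ± 0.325 CPM in WT, and YBL006W-A averaged 19.4 ± 1.22 CPM in mpk1 and 2.03 ± 1.14 CPM in WT.

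The members were also grouped by their place between annotated genes, which could be read from the systematic names for 645 of them. Of 390 placed members with no letter suffix and no annotated gene of the same number, 159 had both flanking genes on the other strand, 197 had 1 and 34 had none, and the median gap between the flanks was 497.5 bases. In rrp6 over WT at 0 min, 30 of 79 tested members with both flanks on the other strand (38%) were higher, as were 21 of 94 with 1 (22.3%) and 4 of 14 with none, beside 28.1% of all tested members and 9.32% of all rows. Of gaps under 300 bases 19 of 51 tested members (37.3%) were higher, and of longer gaps 36 of 136 (26.5%). Where a tRNA gene lay in the gap or inside a flanking gene 7 of 35 (20.0%) were higher. Within 30 kb of a chromosome end 1 of 13 was. No difference between these classes was tested. Of 84 higher members with a tested coding neighbour, 16 (19.0%) had a neighbour that was also higher, beside 22.3% of the 300 tested members with such a neighbour.

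The pathway that acts on such RNA was read from 21 genes of the exosome, TRAMP and Nrd1-Nab3-Sen1 complexes, all of which were tested. In rrp6 over WT at 0 min 3 rose and 1, RRP6 itself, was lower. Those that rose were NRD1 (log2 fold change 1.96 ± 0.34, SE), the TRAMP subunit gene AIR2 (0.83 ± 0.13) and NAB3 (0.62 ± 0.17). Of all rows, 9.32% were higher and 4.64% lower in that comparison. With heat in WT, 1 rose and 19 fell at 10 min, and 3 rose and 16 fell at 45 min, beside 36.2% and 39.2% of all rows that were lower. In rrp6, 0 rose and 19 fell at 10 min, and 1 rose and 17 fell at 45 min, beside 37.7% and 39.0% of all rows that were lower. In bulk RNA, a change in the share of cells that make an RNA and a change in the RNA per cell cannot be told apart.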

How the data were processed

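Total RNA of 36 libraries was measured, and the deposited files hold raw whole-number counts per frame with 5 summary lines, made by the authors with HISAT2 2.1.0 and HTSeq on build R64 per the submitters' processing notes. The summary lines, 15.9% to 50.1% of a file's lines, stayed out of library sizes and tests. Counts were fitted in 1 model over 12 groups with edgeR 4.0.16 (R 4.3.3, limma 3.58.1): filterByExpr (minimum count 10, total 15, group size 3) kept 6017 rows, TMM scaling, quasi-likelihood tests, Benjamini-Hochberg adjustment over all rows, threshold 0.05. Printed CPM are TMM-scaled. Floors and the 95% intervals in counts cover counting error only. The p-values measure the spread between biological replicates. Alternatives were DESeq2 1.42.0, other scalings, filters, fits, left-out libraries and a replicate block. Members named are the 12 most counted and up to 6 in each direction per main comparison, by log2 fold change among called members that averaged 1 CPM or more and whose groups did not overlap; others were chosen after their values were seen. The members and lists were chosen with earlier results of these data known. Same-lettered libraries of a pair of groups deviated together (all 3 correlations over 0.1) in 2 of 17 comparisons, mpk1 against WT at 0 and 45 min. The cutoff is a choice: mpk1rrp6 against mpk1 at 0 min had 0.236, 0.0895 and 0.113. The letters also differed in unaligned reads, 2.01% to 3.66% of lines in C libraries and 3.73% to 14.0% in A and B libraries.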

Additional observations from a re-analysis of the deposited data

Results flagged for a closer look

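The difference in heat response between rrp6 and WT passed its test in 34 members with a smaller and 2 with a larger response in rrp6 at 10 min, beside 8.38% and 4.79% of all rows, and in 74 with a smaller and 3 with a larger response at 45 min, beside 19.6% and 12.6% of all rows. Among named members at 10 min, the log2 difference of rrp6 minus WT was 2.32 for YNL179C, -8.80 for YPL222C-A, -6.86 for YCR064C, -6.06 for YML012C-A, -5.40 for YJL067W, -5.16 for YGR160W and -4.39 for YOL013W-B. At 45 min it was 1.85 for YNL179C, 1.54 for YDR220C, 1.11 for YGR122C-A, -10.04 for YPL222C-A, -7.41 for YCR081C-A, -7.38 for YCR064C, -6.90 for YJL067W, -6.35 for YBR277C and -6.13 for YML012C-A. YPL222C-A, YCR064C, YML012C-A, YCR081C-A, YJL067W and YBR277C had no count in unheated WT, so the size of their fitted difference depends on the prior count and is no bound. The calls on YJL067W at 10 min, and on YDR220C, YGR122C-A and YBR277C at 45 min, were lost without single libraries, and that on YDR220C also with DESeq2, with no low-count filter and with the replicate block.

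Reads outside any listed frame, which no comparison above uses, made up 5.49% of all lines in rrp6 and 4.75% in mpk1rrp6 at 0 min, against 2.28% in mpk1 and 2.08% in WT. The ranges over libraries were 5.36% to 5.61% in rrp6 and 2.03% to 2.11% in WT. At 45 min these reads made up 8.35% in rrp6, 8.41% in mpk1rrp6, 9.65% in mpk1 and 6.39% in WT.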

How the results depend on the processing

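Of 1171 values of 78 named results under alternatives, 1113 kept their direction and side of the threshold, 58 kept their direction and lost the call, 51 of these with 1 library left out, and 0 turned. Fitting only the samples compared tested fewer members. For heat it called 63 of 94 and 59 of 72 members in WT at 10 and 45 min, and 96 of 131 in mpk1 at 10 min. It also called 136 of 183 in rrp6 at 45 min, and 103 of 187 and 120 of 172 in mpk1rrp6. Of all rows these fits called 39.1% higher and 36.7% lower, and 40.2% and 39.2%, in WT. They called 40.9% and 39.7% in mpk1, 39.9% and 41.5% in rrp6, and 36.4% and 34.8%, then 35.8% and 38.2%, in mpk1rrp6. In rrp6 over WT the calls were 52 of 131 at 10 min and 60 of 127 at 45 min. Beside these, 11.9% and 17.7% of all rows were higher and 13.5% and 20.9% lower. The other calls were 29 and 30 in mpk1rrp6 over mpk1 at 10 and 45 min, and 9 and 36 in mpk1 over WT at 0 and 10 min. No share over all rows is given for these, so they are not shown to be particular to the members. With no low-count filter 425 of 636 members were called for heat in mpk1 at 45 min, beside 43.2% higher and 36.1% lower of all rows. DESeq2 called 7 of the 302 tested members in mpk1 over WT at 0 min, also with no share over all rows given. With 1 library left out, calls ranged from 40 to 73 in mpk1rrp6 over mpk1 at 45 min and from 2 to 7 in mpk1 over WT at 0 min. Leaving out both heated mpk1rrp6 libraries of letter C, which earlier work on these data had set apart, moved no count of calls by over 1.5 times.

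With the replicate block, mpk1 over WT had 6 calls at 0 min and 135 at 45 min, where the letters pair the libraries, in place of 4 and 132. In the other comparisons the letters do not pair the libraries, and calls changed by 0.989 to 1.12 times.

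The log2 ratio of the summed share was 1.84 and 1.74 for heat at 10 and 45 min in WT, 2.27 and 2.12 in mpk1, 0.85 and 0.85 in rrp6 and 1.38 and 1.03 in mpk1rrp6. At 0, 10 and 45 min it was 1.07, 0.07 and 0.18 for rrp6 over WT and 0.99, 0.10 and -0.10 for mpk1rrp6 over mpk1. Without the 10 most counted members it was 0.83 and 1.38 in WT, 0.83 in mpk1 at 10 min, -0.12 and 0.28 in rrp6, 0.13 and 0.70 in mpk1rrp6, 1.40, 0.45 and 0.31 for rrp6 over WT and -0.44 for mpk1rrp6 over mpk1 at 45 min. With all lines as denominator it was 1.61 in WT, 1.97 in mpk1 and 0.68 in mpk1rrp6 at 45 min, 0.60 and 0.39 in rrp6, 0.92, -0.28 and -0.30 for rrp6 over WT and 0.85, -0.13 and -0.44 for mpk1rrp6 over mpk1. As a median over members with counts it was 0.51 and 0.89 in WT, 0.44 and 1.25 in mpk1, 0.16 and 0.34 in rrp6, 0.30 and 0.52 in mpk1rrp6, 0.30 and 0.00 for rrp6 over WT at 0 and 45 min, and 0.19 and -0.25 for mpk1rrp6 over mpk1 at 0 and 45 min. With 1 library left out, that of mpk1rrp6 over mpk1 at 10 min ranged from -0.061, without mpk1 replicate B, to 0.20. The cause of these shifts was not tested. Depth is a limit: 381 of 683 could not be tested, and a member with no count in a library may lie below 1.34 CPM in the shallowest.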
